A study of Mus musculus with 8 samples.

Results

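A set of 10 genes of necroptosis and pyroptosis was followed in mouse Paneth cells, which secrete antimicrobial peptides into the crypts of the small intestine: *Ripk1*, *Ripk3*, *Mlkl*, *Zbp1*, *Casp8*, *Fadd*, *Cflar*, *Casp1*, *Casp4* and *Gsdmd*. They were chosen by name, and each symbol matched 1 of the 55414 Ensembl IDs in the counts table, so that all 10 were found. The TG group held 4 libraries of purified Paneth cells from transgenic mice (genotype DT TG) in which these cells express diphtheria toxin, and the WT group held 4 such libraries of wild type mice. The series' title places the profiled cells after depletion of mature Paneth cells, so the TG libraries hold the cells sorted after that depletion. All cells were sorted by FACS from small intestine, and the study's methods name C57BL/6J mice for its sorted Paneth cells. The promoter behind the toxin and the age of the mice are not given in the sources at hand, and the toxin transgene was not analysed here. The labels do not tie a replicate to 1 mouse, but the study describes its sequenced samples as cells of individual mice, so the spread between libraries was taken as that between mice.

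Necroptosis and pyroptosis are lytic forms of cell death. In necroptosis, death receptors, Toll-like receptors or the nucleic acid sensor ZBP1 bring the kinases RIPK1 and RIPK3 together, and RIPK3 phosphorylates MLKL, which then breaks the plasma membrane. Caspase-8, with its adaptor FADD and its partner cFLIP (the product of *Cflar*), holds this route in check by cleaving RIPK1 and RIPK3. In pyroptosis, caspase-1 (within inflammasomes) and caspase-4 (which binds cytosolic lipopolysaccharide, and in the mouse is also called caspase-11) cleave gasdermin D, whose fragment forms membrane pores. Paneth cells are known to die by necroptosis in mice whose gut epithelium lacks caspase-8.

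Total counts per library ranged from 13107397 to 16218434. Levels are given as CPM (counts scaled to a library size of 1000000) after scaling with TMM factors, and changes as log2 fold changes of TG over WT with their SE and an edgeR quasi-likelihood p, Benjamini-Hochberg adjusted over the 11929 genes that passed the filter on low counts. Counts of 4 Y-linked genes were 0 in replicates 1 and 2 of either group and 897 to 1564 in replicates 3 and 4, so this difference was balanced between the groups. The defining Paneth cell genes were abundant, with a summed level of 10 markers of 337050 to 425110 CPM in TG and 319490 to 477080 CPM in WT. The largest part of this sum was *Lyz1*, which did not pass the test. Of these 10, *Mmp7*, *Ang4*, *Mptx2* and *Reg3g* were lower in TG, at 66.4%, 67.2%, 39.3% and 14.8% of the WT mean. Of 12 enterocyte markers, 5 were higher in TG, and their summed level was 522 to 692 CPM in TG and 354 to 455 CPM in WT. Most of this sum was *Anpep*, which did not pass the test, and the other 11 summed to 149 to 288 CPM in TG and 76.0 to 131 CPM in WT. *Alpi* and *Apoa4* were the furthest apart of the 5, at 594% and 698% of the WT mean. Both were at low levels, with means of 4.74 and 9.61 CPM in TG and 0.798 and 1.38 CPM in WT. None of the 12 was at 0 in all libraries. The share of mitochondrial counts was 1.15 to 1.53% in TG and 0.566 to 1.10% in WT. The part of the Paneth, enterocyte and mitochondrial differences in the results below was not tested. Leukocyte markers other than *Lyz2*, whose reads may be shared with the abundant *Lyz1*, summed to at most 2.42 CPM, and 9 of them, including *Cd3g*, *Cd4*, *Adgre1*, *Csf1r*, *S100a8*, *S100a9*, *Nkg7* and *Gzma*, were at 0 in every library. Of the other marker lists, 0 of 7 goblet and 0 of 5 tuft genes passed the test, 1 of 5 stem cell genes was higher and 1 lower, 1 of 6 enteroendocrine genes was lower, and 6 fibroblast and endothelial genes summed to at most 0.297 CPM. In such bulk samples, fewer cells that express a gene and less RNA per cell cannot be told apart.

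Of the 10 genes, 4 were lower in TG (*Ripk1*, *Ripk3*, *Zbp1* and *Casp4*) and 0 were higher. Among all tested genes, 9.65% were lower and 8.26% were higher, and higher genes made up 46.1% of the calls with TMM factors and 75.02% when only total counts were used. The 4 lower genes were the 4 whose CPM in every TG library lay below every WT library, a pattern seen in 12.0% of all tested genes. No gene of the 10 had all TG libraries above all WT libraries, against 9.93% of all tested genes. At an unadjusted edgeR p below 0.05, 5 were lower and 0 were higher, beside 2034 lower and 1909 higher of the 11929 tested genes. DESeq2 and limma voom also called 4 of the 10 lower and 0 higher. The median log2 fold change of the 10 was -0.28, beside 0.01 over all tested genes, and 7 of the 10 values were below 0.

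**Figure D1:**
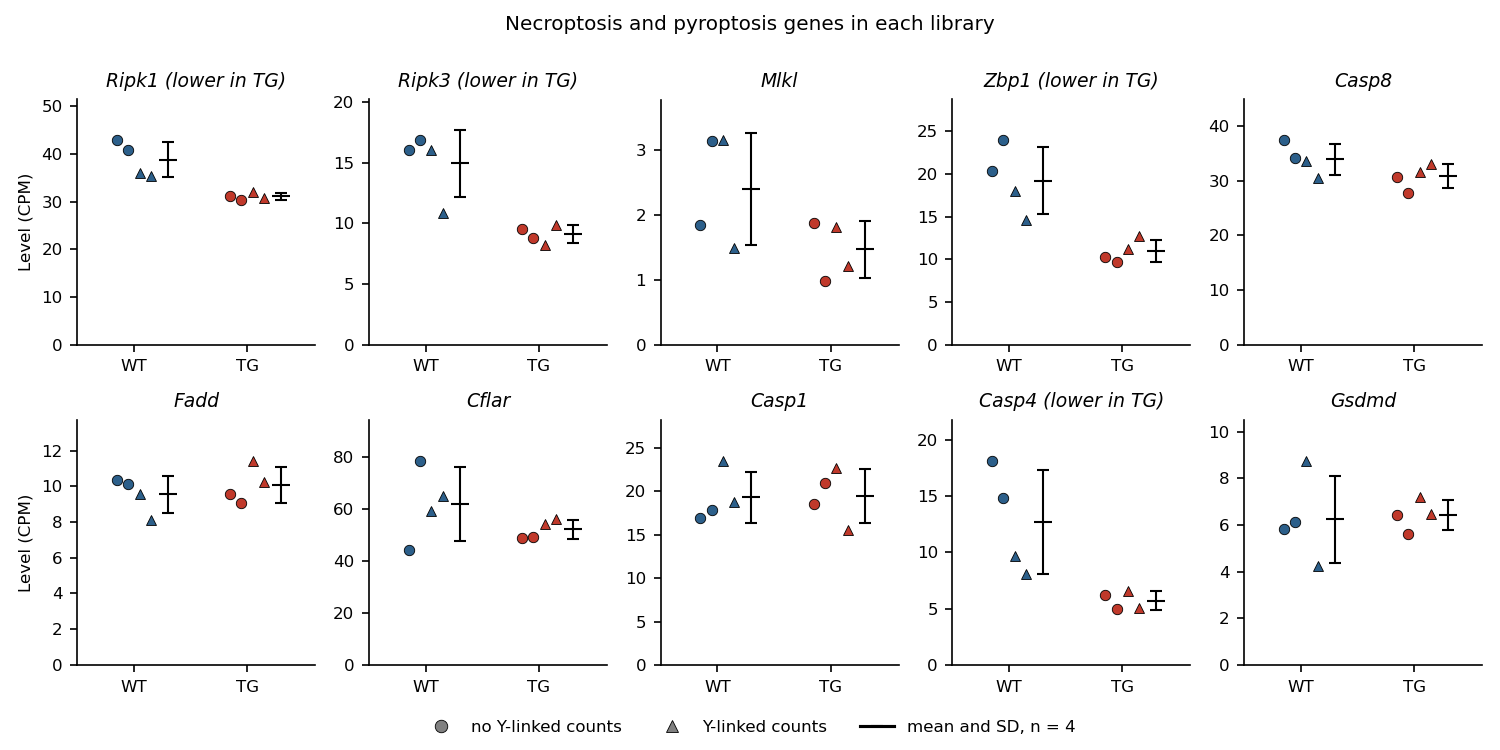
Level of each gene in each library (CPM, vertical axis from 0) in WT (blue) and TG (red). Circles are libraries without Y-linked counts, triangles libraries with them, and the bars give mean and SD of 4 libraries; for Ripk1, Ripk3, Zbp1 and Casp4 every TG point lies below every WT point, and for the other 6 genes the groups overlap.

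Among the sensors and kinases that start necroptosis, *Zbp1* showed the largest change in the fit to all libraries. The intervals of *Zbp1* and *Ripk3* overlapped, and within the libraries with Y-linked counts *Ripk3* changed more (-0.57 against -0.45). *Zbp1* (ENSMUSG00000027514, GRCm39 chromosome 2, 173033815 to 173060724, minus strand) encodes the receptor for Z-form nucleic acids that recruits RIPK3, and it is a well known interferon-induced gene. Its level was 10.3, 9.70, 11.2 and 12.7 CPM in TG-1 to TG-4 and 20.3, 23.9, 18.0 and 14.7 CPM in WT-1 to WT-4. The groups did not overlap, and TG-4, the highest TG library, lay just under WT-4, the lowest WT library. The TG mean was 57.1% of the WT mean, with a log2 fold change of -0.81 ± 0.15 (SE, n = 4 libraries each, 95% interval -1.12 to -0.50, edgeR adjusted p = 0.00269).

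The start of *Zbp1* is shown because it held repeated matches to a motif of interferon-induced genes, the interferon-stimulated response element, searched as GAAA, any 2 bases and GAAA on both strands from 250 bases before to 50 bases after the start of the canonical transcript, which can lie inside the gene (for *Zbp1* it is the end of the gene on the minus strand, 173060724). Of 21627 promoters of protein-coding genes in this window, 3.83% held a match. *Zbp1* had 2 overlapping matches from 91 to 76 bases before its start and another overlapping pair from 43 to 28 bases before it, all in reverse orientation. In the sequences, read 5′ to 3′ on the strand of the gene from GRCm39, capitals mark the matched bases.
Zbp1, chr2:173060793-173060822, minus strand: accccgaTTTCAATTTCGATTTCgacaccc
Zbp1, chr2:173060745-173060774, minus strand: accaaagTTTCATTTTCTCTTTCtttgaaa
Among the other 9 genes, only *Mlkl* had a match, in a stretch that consists almost wholly of T and C at the far end of its window, which lies within the gene (canonical start 112064868). The gamma-activated site, searched as TTC, any 3 bases and GAA, had matches in *Zbp1* and *Cflar* (canonical start 58752345, inside the gene) and in 8.85% of all promoters. Of the 2 matches in *Zbp1*, the one from 30 to 22 bases before the start overlapped a match to the first motif. These matches are descriptions of letters and not of bound sites.

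*Ripk3* (ENSMUSG00000022221, chromosome 14, 56022452 to 56026324, minus strand) encodes the kinase that activates MLKL. It was measured at 9.50, 8.78, 8.23 and 9.87 CPM in TG-1 to TG-4 and at 16.1, 16.8, 16.0 and 10.9 CPM in WT-1 to WT-4. WT-1, WT-2 and WT-3 lay close together, and WT-4 lay nearer to the TG libraries than to these, yet above every TG library. *Ripk3* fell to 60.9% of the WT mean (log2 fold change -0.72 ± 0.14, 95% interval -1.03 to -0.41, edgeR adjusted p = 0.00467). Without WT-4 the log2 fold change was -0.85 (adjusted p = 0.00154).

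*Ripk1* (ENSMUSG00000021408, chromosome 13, 34186141 to 34221130, plus strand), the kinase that acts below death receptors in both survival and death signalling, changed least of the 4. The TG libraries were tightly grouped, at 31.3, 30.4, 32.1 and 30.8 CPM, and the WT libraries held 42.9, 40.9, 36.0 and 35.5 CPM. The TG mean was 80.2% of the WT mean (log2 fold change -0.32 ± 0.09, 95% interval -0.51 to -0.13, edgeR adjusted p = 0.0244). Its call was lost with total counts only (adjusted p = 0.318), without TG-1 (0.0720), without TG-2 (0.0724) and without WT-1 (0.0512). *Ripk1* shares 2.19% of its exon bases with *Serpinb6a* on the opposite strand, which did not pass the test (log2 fold change -0.10, adjusted p = 0.522), and 4.65% with the pseudogene *Gm17084* on the same strand, which had 0 counts.

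*Mlkl* (ENSMUSG00000012519, chromosome 8, 112036296 to 112065168, minus strand) encodes the pseudokinase that carries out necroptosis, and it was the least abundant of the 10. Libraries held only 14 to 47 counts of it, with 1.87, 0.984, 1.80 and 1.22 CPM in TG-1 to TG-4 and 1.84, 3.13, 3.14 and 1.49 CPM in WT-1 to WT-4. WT-1 and WT-4 lay within the range of the TG libraries. The fitted log2 fold change of -0.70 ± 0.31 was close in size to that of *Ripk3*, but its interval reached from -1.37 to -0.03 and it did not pass the test after adjustment (unadjusted p = 0.0427, edgeR adjusted p = 0.137).

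**Figure D2:**
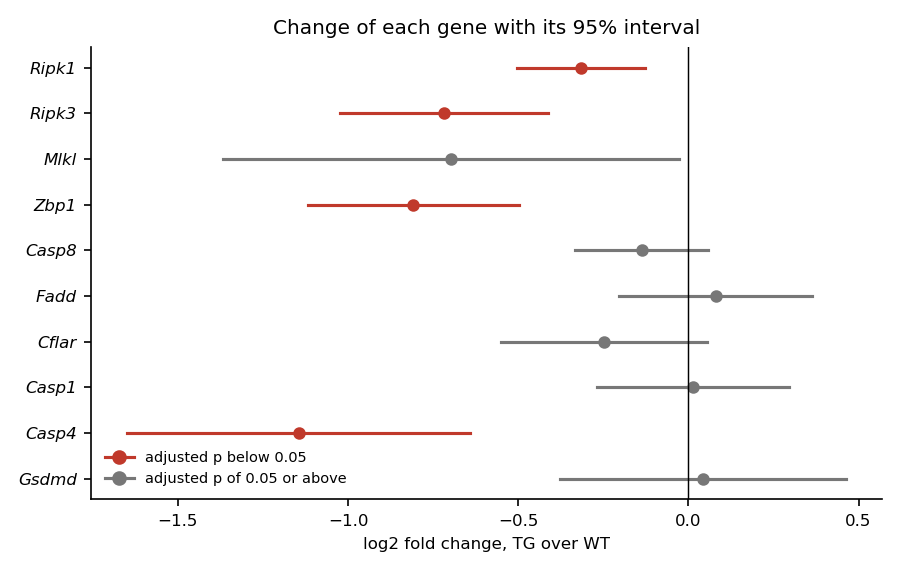
Log2 fold change of TG over WT for each gene (horizontal axis) with its 95% interval from the edgeR fit. Red marks an adjusted p below 0.05; the 4 red intervals (Ripk1, Ripk3, Zbp1, Casp4) lie below 0, the Mlkl interval is the widest, and Casp8, Fadd, Cflar, Casp1 and Gsdmd have intervals that include 0.

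None of the 3 genes of the caspase-8 complex passed the test. *Casp8* (ENSMUSG00000026029, chromosome 1, 58834375 to 58886665, plus strand), the protease of the complex, was at 30.7, 27.8, 31.5 and 33.1 CPM in TG-1 to TG-4 and at 37.4, 34.1, 33.6 and 30.5 CPM in WT-1 to WT-4. Its ranges overlapped, and the log2 fold change was -0.14 ± 0.09 (95% interval -0.33 to 0.06, edgeR adjusted p = 0.315).

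*Fadd* (ENSMUSG00000031077, chromosome 7, 144131055 to 144136211, minus strand), the adaptor between death receptors and caspase-8, had 9.56, 9.06, 11.4 and 10.3 CPM in TG-1 to TG-4 and 10.4, 10.2, 9.56 and 8.11 CPM in WT-1 to WT-4. The values were interleaved (log2 fold change 0.08 ± 0.13, 95% interval -0.20 to 0.36, edgeR adjusted p = 0.711). *Faddos*, which covers 6.11% of its exon bases on the opposite strand, had 0 counts.

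*Cflar* (ENSMUSG00000026031, chromosome 1, 58750321 to 58798047, plus strand) encodes the caspase-8 homologue cFLIP, which limits caspase-8 activity, and lies 36327 bases from *Casp8* on the same strand. It had 48.8, 49.3, 54.3 and 56.0 CPM in TG-1 to TG-4 and 44.2, 78.6, 59.4 and 65.1 CPM in WT-1 to WT-4. WT-1 was below all TG libraries and the other 3 WT libraries were above them. The log2 fold change was -0.25 ± 0.14 (95% interval -0.55 to 0.06, edgeR adjusted p = 0.239), and without WT-1 it was -0.38 and passed the test (adjusted p = 0.0220). Without WT-2 it was -0.11 (adjusted p = 0.545).

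Of the pyroptosis genes, *Casp4* fell and *Casp1* and *Gsdmd* did not pass the test. *Casp4* (ENSMUSG00000033538, chromosome 9, 5308828 to 5336783, plus strand) was at 6.25, 4.92, 6.60 and 5.01 CPM in TG-1 to TG-4 and at 18.1, 14.8, 9.69 and 8.11 CPM in WT-1 to WT-4. The TG libraries were close to each other, while the WT libraries without Y-linked counts were well above those with them. The TG mean was 44.9% of the WT mean, the lowest share among the 10 genes, with a log2 fold change of -1.14 ± 0.23 (95% interval -1.65 to -0.64, edgeR adjusted p = 0.00660).

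The start of *Casp4* is shown because it alone of the 10 held a match to the NF-kB site, searched as GGGA, any 4 bases and CC on both strands, which 21.6% of all promoters held. The match lay from 86 to 77 bases before the start of the canonical transcript (5308843, inside the gene as annotated) and is given in capitals.
Casp4, chr9:5308747-5308776, plus strand: tgagttacagGGGATTTCCCcacagcagtt

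*Casp1* (ENSMUSG00000025888, chromosome 9, 5298508 to 5307290, plus strand) ends 1537 bases before *Casp4* on the same strand. It had 18.6, 20.9, 22.7 and 15.6 CPM in TG-1 to TG-4 and 16.9, 17.9, 23.5 and 18.8 CPM in WT-1 to WT-4. The ranges of the groups coincided almost fully (log2 fold change 0.01 ± 0.13, 95% interval -0.27 to 0.30, edgeR adjusted p = 0.956). The neighbouring genes thus differed in their change, which is seen without any scaling in the ratio of *Casp4* to *Casp1* counts within a library. This ratio was 0.337, 0.235, 0.290 and 0.322 in TG-1 to TG-4 and 1.07, 0.8288, 0.412 and 0.431 in WT-1 to WT-4. The groups did not overlap, both among the libraries without Y-linked counts and among those with them.

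*Gsdmd* (ENSMUSG00000022575, chromosome 15, 75733974 to 75739257, plus strand), the gene of the pore-forming gasdermin D that both caspases cleave, had 6.44, 5.62, 7.22 and 6.46 CPM in TG-1 to TG-4. In WT-1 to WT-4 it had 5.83, 6.12, 8.76 and 4.24 CPM, and the TG values lay within that range. Its log2 fold change was 0.04 ± 0.20 (95% interval -0.38 to 0.46, edgeR adjusted p = 0.903). The interval leaves changes of up to about these bounds unresolved.

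The ratio of counts of *Ripk3* to *Casp8*, the kinase and the protease that cleaves it, was 0.309, 0.316, 0.261 and 0.298 in TG-1 to TG-4 and 0.429, 0.494, 0.477 and 0.356 in WT-1 to WT-4. All TG values were below all WT values. The ratio of *Cflar* to *Casp8* was 1.59 to 1.77 in TG and 1.18 to 2.31 in WT, so that the TG values lay inside the WT range. Ratios of *Ripk3* to *Ripk1* (0.257 to 0.320 in TG, 0.306 to 0.445 in WT) and of *Mlkl* to *Ripk3* (0.112 to 0.219 in TG, 0.114 to 0.196 in WT) overlapped. These ratios were not tested.

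**Figure D3:**
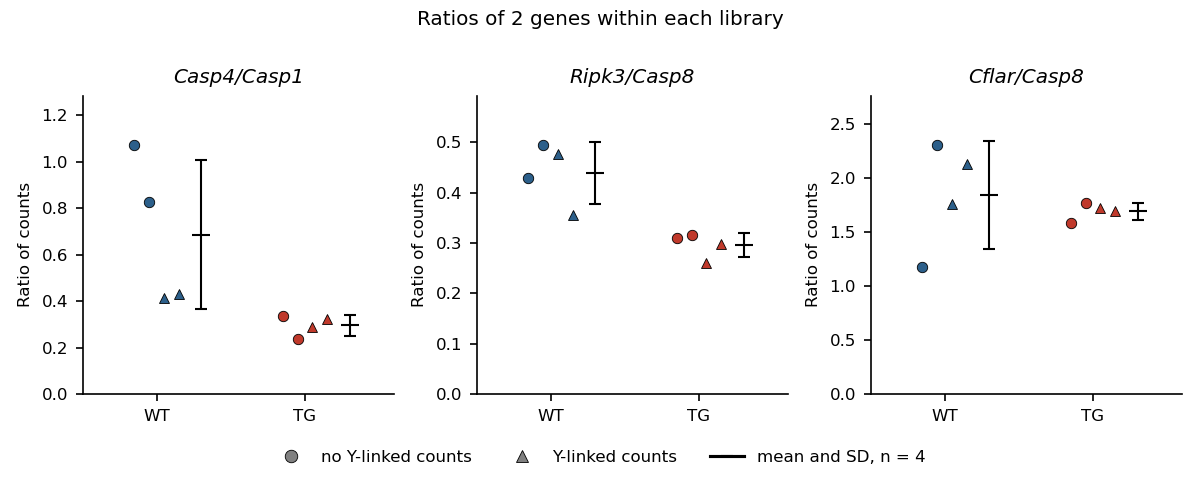
Ratio of the counts of 2 genes within each library (vertical axis from 0, no unit) in WT (blue) and TG (red); circles are libraries without Y-linked counts, triangles libraries with them, and bars give mean and SD of 4 libraries. TG points lie below all WT points for Casp4 over Casp1 (highest TG 0.337, lowest WT 0.412) and Ripk3 over Casp8 (0.316 and 0.356), and inside the WT range for Cflar over Casp8.

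Levels of different genes were compared only per kilobase of the canonical transcript (CPM per kb). In WT, *Casp1* (12.6 ± 1.91 CPM per kb, SD, n = 4) and *Casp8* (12.4 ± 1.03) were the most abundant. They were followed by *Zbp1* (9.62 ± 1.96), *Cflar* (8.81 ± 2.03), *Casp4* (8.80 ± 3.21), *Ripk3* (7.89 ± 1.45) and *Ripk1* (5.76 ± 0.54). *Gsdmd* (3.16 ± 0.95), *Fadd* (2.44 ± 0.26) and *Mlkl* (0.575 ± 0.21) were the lowest. The ranges of neighbours in this order over the WT libraries overlapped, except those of *Ripk1* and *Gsdmd* and those of *Fadd* and *Mlkl*. Within each WT library *Casp8* also lay above *Zbp1*, *Ripk3* above *Ripk1* and *Gsdmd* above *Fadd*. In TG, *Casp1* (12.7 ± 2.02 CPM per kb) and *Casp8* (11.2 ± 0.81) again had the highest levels, and *Casp4* was at 3.95 ± 0.59, below *Ripk3* (4.80 ± 0.39) and *Ripk1* (4.62 ± 0.11). With the length of all annotated exons the WT order changed: *Casp8* was first (11.0 CPM per kb), *Ripk3* stood above *Zbp1* and *Cflar* (5.91, 4.48 and 4.27), *Casp4* stood below *Fadd* (2.42 and 2.44), and *Mlkl* stayed last (0.414).

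Within the 4 libraries without Y-linked counts, *Ripk3*, *Zbp1* and *Casp4* were lower in TG with log2 fold changes of -0.85, -1.15 and -1.55 (edgeR adjusted p = 0.0125, 0.00198 and 0.00111), and *Ripk1* did not pass the test (-0.44, adjusted p = 0.0612). Within the 4 libraries with Y-linked counts, 0 of the 10 passed in either direction. In those libraries the log2 fold changes were -0.18 for *Ripk1*, -0.57 for *Ripk3*, -0.45 for *Zbp1* and -0.60 for *Casp4* (adjusted p = 0.452, 0.203, 0.200 and 0.195). Of all genes tested, 9.44% were called in the first set of libraries and 1.80% in the second. The test of the difference between the 2 sets, an interaction term in 1 edgeR fit, had its smallest p among the 10 genes for *Casp4* (unadjusted p = 0.00908, adjusted p = 0.723) and *Zbp1* (unadjusted p = 0.0119, adjusted p = 0.756). After adjustment none of the 10 passed this test. With 2 libraries per group in each set, the test cannot show that the sets were alike.

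**Figure D4:**
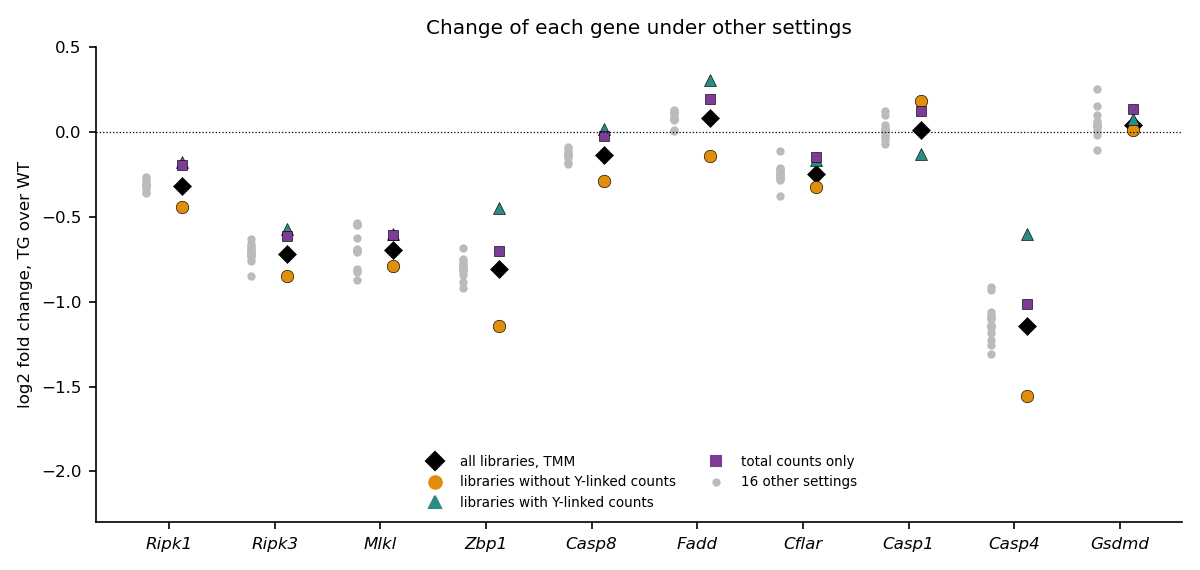
Log2 fold change of TG over WT (vertical axis) for each gene in the fit to all libraries (black diamonds), within the libraries without Y-linked counts (orange circles), within those with them (green triangles), with total counts only (purple squares) and under 16 other settings (grey). Ripk1, Ripk3, Mlkl, Zbp1, Cflar and Casp4 stay below 0 throughout, and the distance between orange and green is largest for Casp4 (-1.55 and -0.60) and Zbp1 (-1.15 and -0.45).

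Around these genes, 102 further genes of the same pathways were taken in 6 lists, of which 91 passed the filter. Of these, 3 were higher and 9 were lower in TG, and their median log2 fold change was -0.07. The shares are below the 8.26% and close to the 9.65% of all tested genes. Named, with few exceptions, are the genes that passed the test and the 2 most abundant others of each list, and any further gene is named for its known role, after its values were seen.

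Of 23 death receptor genes, all tested, 1 was lower and 0 were higher (median -0.09). *Tnfrsf1b*, which encodes TNF receptor 2, fell from 10.1, 8.35, 9.76 and 6.54 CPM in WT-1 to WT-4 to 5.37, 5.20, 4.90 and 5.32 CPM in TG-1 to TG-4 (log2 fold change -0.74 ± 0.16, edgeR adjusted p = 0.00733). With total counts only its adjusted p was 0.0556. *Tnfrsf1a*, which encodes TNF receptor 1, the receptor that signals through RIPK1, had a value of -0.38 and did not pass (adjusted p = 0.0658), but passed without WT-3 (0.0294) or WT-4 (0.0468). Without WT-1 its value was -0.22 (adjusted p = 0.146). It also passed with DESeq2 (0.0440), without a filter (0.00282) and with a covariate for Y-linked counts (0.0354). Over the 19 alternative settings *Tnfrsf1a* ran from -0.57 to -0.14 and passed in 7. *Rbck1*, a subunit of the linear ubiquitin chain assembly complex, was at 0.11 (adjusted p = 0.393).

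Of 11 triggers of necroptosis and regulators of MLKL, 3 were lower and 0 were higher (median -0.17). *Ticam1*, which encodes the adaptor TRIF between TLR3 or TLR4 and RIPK3, was at 18.1, 16.4, 17.6 and 20.5 CPM in TG-1 to TG-4 and at 28.0, 29.6, 29.1 and 25.1 CPM in WT-1 to WT-4. The groups were far apart relative to their spread (log2 fold change -0.62 ± 0.10, edgeR adjusted p = 0.00150). *Chmp4b*, a membrane-repair ESCRT-III subunit, and *Itpk1*, an inositol phosphate kinase whose products act on MLKL, had values of -0.29 and -0.49 (adjusted p = 0.0276 and 0.0228). *Chmp4b* lost its call without TG-1 (adjusted p = 0.0961), TG-2 (0.0941) or WT-4 (0.0517), and *Itpk1* without TG-1 (0.0834), TG-2 (0.0791) or WT-1 (0.0505). Both lost it with total counts only (0.316 and 0.135), and *Chmp4b* also in the libraries without Y-linked counts (0.0525). Over the 19 alternative settings *Chmp4b* ran from -0.44 to -0.15 and *Itpk1* from -0.82 to -0.16, with adjusted p of up to 0.495 and 0.597. *Chmp2a*, another ESCRT-III subunit, and the chaperone gene *Hsp90aa1* did not pass (-0.17 and -0.67, adjusted p = 0.197 and 0.0536), though *Hsp90aa1* passed without WT-1 (0.0227) or WT-2 (0.0216). It also passed with DESeq2 (0.00428), limma voom (0.0300), no filter (0.00173) and a covariate for Y-linked counts (0.0198). *Hsp90aa1* was at -0.44 without WT-4 (adjusted p = 0.0502), at -0.21 in the libraries without Y-linked counts (0.331) and at -1.01 in those with them (0.00911). The double-stranded RNA receptor gene *Tlr3* had 10.6 to 12.9 CPM in TG and 9.83 to 12.6 CPM in WT (log2 fold change -0.0009, adjusted p = 0.997).

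Of 25 inflammasome sensors and adaptors, 19 were tested, 1 was higher and 0 were lower (median 0.04). *Naip1*, which encodes a receptor for bacterial secretion system needles, was higher (log2 fold change 0.61 ± 0.18, edgeR adjusted p = 0.0333), but near-identical *Naip* copies may share its reads and its call was lost under limma voom (adjusted p = 0.0584). It was also lost with total counts only (0.0579) and without TG-2 (0.113), TG-3 (0.0957), WT-1 (0.0761) or WT-2 (0.0527). *Nlrc4*, the partner of the NAIP receptors, and *Txnip*, a thioredoxin-binding protein gene linked to NLRP3, had values of 0.20 and 0.49 (adjusted p = 0.171 and 0.119), and *Txnip* passed without WT-4 (0.0382) and was at 0.30 without TG-2 (0.266). With DESeq2 (0.0447) and without a filter (0.00170) *Txnip* passed. Over the 19 alternative settings *Txnip* ran from 0.18 to 0.78 and passed in 5. *Pycard*, the adaptor ASC that joins sensors to caspase-1, was at 0.06 (adjusted p = 0.827). *Nlrp1a* and *Mefv* had 0 counts in all libraries.

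Of 12 genes of other gasdermins, membrane rupture and cytokines, 7 were tested, 1 was higher and 1 was lower (median -0.35). *Gsdme*, the gasdermin that caspase-3 cleaves, rose from 5.99, 5.57, 7.02 and 6.47 CPM in WT-1 to WT-4 to 8.62, 8.92, 12.0 and 12.6 CPM in TG-1 to TG-4 (log2 fold change 0.75 ± 0.16, edgeR adjusted p = 0.00660). It lost its call within the libraries without Y-linked counts (adjusted p = 0.113). *Gsdma*, a skin gasdermin, was near the limit of detection in TG, with 0, 3, 6 and 1 counts in TG-1 to TG-4 against 37, 30, 20 and 14 counts in WT-1 to WT-4. Its fitted log2 fold change of -3.44 depends on the prior count (edgeR adjusted p = 0.00190), and reads may be shared with its paralogs *Gsdma2* (-0.17, adjusted p = 0.434) and *Gsdma3* (0 counts), which was not checked. *Ninj1*, the gene of the protein that ruptures the membrane after pore formation, had a value of -0.35 (adjusted p = 0.0527) and passed without TG-1 (0.0354) or WT-2 (0.0282), with DESeq2 (0.0498) and without a filter (0.0124). Of the cytokines released through gasdermin pores, *Il1a* and *Il1b* had 0 counts in all libraries, and *Il18* had 0.42 to 1.14 CPM in TG and 0.32 to 1.04 CPM in WT.

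Of 14 apoptotic caspases and their regulators, all tested, 1 was higher and 1 was lower (median 0.10). *Cycs*, which encodes cytochrome c, fell from 20.9, 16.3, 19.5 and 19.5 CPM in WT-1 to WT-4 to 10.4, 11.0, 13.8 and 11.2 CPM in TG-1 to TG-4 (log2 fold change -0.71 ± 0.12, edgeR adjusted p = 0.00191). *Casp9*, the initiator caspase that cytochrome c activates, was higher at 0.41 ± 0.12 (adjusted p = 0.0319), and kept its call in 2 of 8 fits with 1 library omitted. Its adjusted p was 0.0920 without TG-1, 0.0863 without TG-2, 0.0787 without TG-4, 0.0704 without WT-1, 0.0520 without WT-2 and 0.0584 without WT-4, and 0.0521 with total counts only. The caspase gene *Casp6* had a value of 0.07 (adjusted p = 0.644).

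Of 17 interferon receptors, kinases and factors, all tested, 3 were lower and 0 were higher (median -0.19). *Ifnar1*, a chain of the type I interferon receptor, was at 25.6, 25.2, 25.8 and 23.1 CPM in TG-1 to TG-4 and at 31.8, 35.1, 29.7 and 32.0 CPM in WT-1 to WT-4. The groups did not overlap (log2 fold change -0.37 ± 0.09, edgeR adjusted p = 0.0124). *Irf8*, an interferon regulatory factor gene, was lower by the same amount (-0.37 ± 0.10, adjusted p = 0.0206). *Ifnar1* and *Irf8* lost their calls with total counts only (adjusted p = 0.244 and 0.273), and *Irf8* also without TG-1 (0.0598), TG-2 (0.0665) or TG-4 (0.0516). Of the 11 settings other than the fits with 1 library omitted, *Ifnar1* kept its call in 8 and *Irf8* in 9. *Irf1* and *Jak1* did not pass (-0.24 and -0.03, adjusted p = 0.193 and 0.8286).

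**Figure D5:**
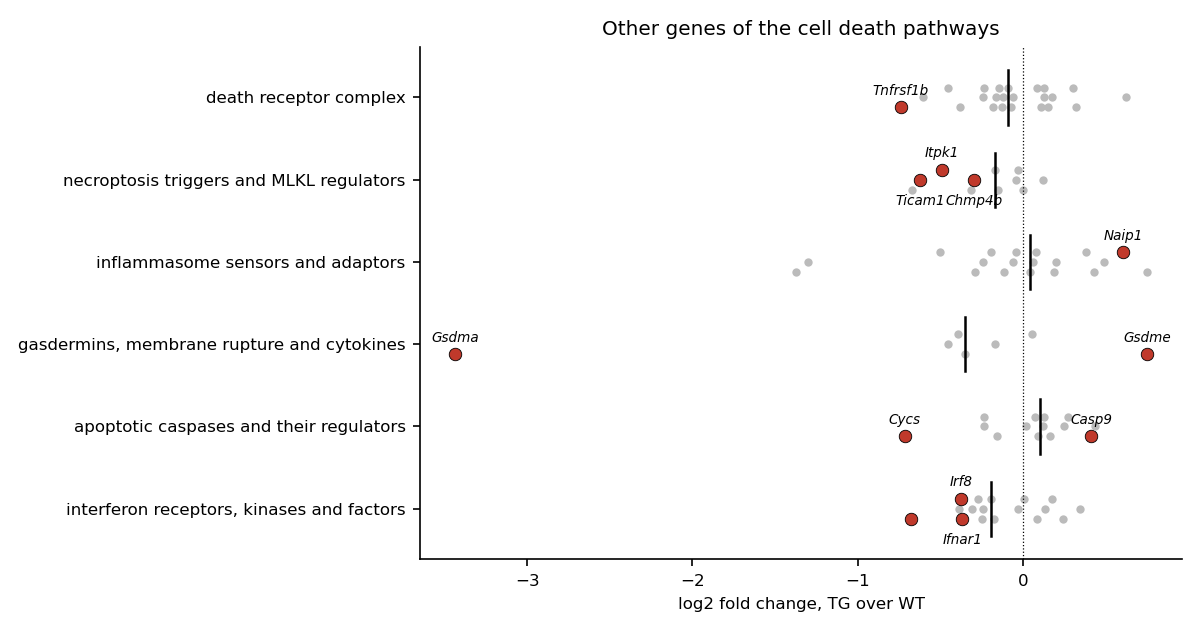
Log2 fold change of TG over WT (horizontal axis) of the 91 tested genes of 6 related lists, 1 point per gene. Red points passed the test (adjusted p below 0.05), grey points did not, and the vertical bar is the median of the list; 9 red points lie below 0 and 3 above it, and Gsdma is at -3.44.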

How the data were processed

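RNA of FACS-sorted Paneth cells was isolated with a column kit and sequenced from stranded, poly(A)-selected libraries. The authors deposited whole-number counts per Ensembl gene for 8 libraries, all of which were used, and 0 columns of other samples were present. The submitters' processing notes name FastQC 0.12.0, STAR 2.7.0a, DESeq2 and the mm39 build. The counting tool, the annotation, the use of strand and the treatment of reads with several alignments are not given in the sources at hand, so overlapping genes and near-identical copies are uncertain. Symbols, positions and lengths came from GENCODE mouse version 39 on GRCm39, which matched 54749 IDs and left 665 unmatched. Promoter windows were read from the same assembly around the start of the canonical transcript.

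Counts were tested with edgeR 4.0.16 in R 4.3.3 (robust quasi-likelihood fit, TMM factors, default filter by group, group as the only term, Benjamini-Hochberg adjustment over 11929 genes, threshold 0.05). The SE was computed from the log2 fold change and the F statistic (their quotient after taking the root of F). Replicates of a group differed by more than sampling noise (chi-square per degree of freedom of at least 5.20). The steps were tested on simulated data. Alternatives were DESeq2 1.42.0, limma voom 3.58.1 with quality weights, RLE factors, total counts only, no filter, at least 1 CPM in 4 libraries, factors without alpha-defensin genes, a replicate block, a covariate for Y-linked counts, the libraries without and with them, and each library left out in turn. The genes, lists, marker genes and alternatives were chosen with earlier results of these data known. A few further genes were named for their known role, after their values were seen. The other genes named are the 10 genes and the related genes that passed the test. To these the rule added, in each list, the 2 others with the most counts per kilobase of exon. Some genes that this rule or the marker lists name are not reported here. Levels per kilobase used the canonical transcript.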

Additional observations from a re-analysis of the deposited data

Results flagged for a closer look

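Over 64 groups of 4 libraries (the genes reported, in TG and in WT), 1 library lay far from the other 3 of its group, by a gap that passed Dixon's 95% critical value. About 3.2 groups would pass this limit by chance. The *Ripk3* level in WT-4 was 10.9 CPM, whereas the other WT libraries had 16.0 to 16.8 CPM.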

How the results depend on the processing

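*Ripk3*, *Zbp1* and *Casp4* kept their direction in all 19 alternative settings and their call in 18 of them; *Ripk1* kept its direction in all 19 and its call in 13. In the libraries with Y-linked counts 0 of the 10 genes were called lower, with log2 fold changes of -0.18 for *Ripk1*, -0.57 for *Ripk3*, -0.45 for *Zbp1* and -0.60 for *Casp4*, 1 related gene was higher and 1 lower, and 113 and 104 of all genes were higher and lower. There *Casp8* (0.0156) and *Casp1* (-0.13) also changed sign. In the libraries without Y-linked counts *Ripk1* was at -0.44, *Fadd* (-0.14) and *Casp6* (-0.0127) changed sign, and 500 and 638 of all genes were higher and lower. The cause was not tested. With total counts only, which moved the median of all genes from 0.01 to 0.12, *Ripk1* was at -0.20, *Jak1* at 0.0859, 1 related gene was higher and 3 were lower, and 262 of all genes were lower. Without a filter 6 related genes were higher and 14 lower.

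With 1 library left out, *Ripk1* ranged from -0.36 to -0.27, *Cflar* from -0.38 to -0.11, *Casp1* from -0.0717 to 0.12, *Gsdmd* from -0.10 to 0.25 and *Jak1* from -0.0716 to 0.0025. Counts ranged from 1 to 3 related genes higher and 6 to 12 lower, and from 485 to 1045 of all genes higher and 550 to 1183 lower, the lowest without TG replicate 2 and TG replicate 1.

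Whether replicate numbers pair the libraries was not settled. Same-numbered TG and WT libraries had correlations of their deviations from the group means of 0.067 to 0.286, not all above 0.1. TG replicates 3 and 4 correlated best with the WT library of the same number (0.286 and 0.231). TG replicate 1 correlated better with WT replicate 2 (0.235) than with WT replicate 1 (0.076). TG replicate 2 correlated about equally with WT replicates 1 and 2 (0.074 and 0.067). With a replicate block, the same 4 genes of the 10 were lower (log2 fold changes of -0.31 for *Ripk1*, -0.71 for *Ripk3*, -0.79 for *Zbp1* and -1.10 for *Casp4*), and 14 related genes were lower and 4 higher. The block brought *Tnfrsf1a*, *Hsp90aa1*, *Txnip* and *Ninj1* past the test (adjusted p = 0.0452, 0.0364, 0.0235 and 0.0270). The counts of *Mlkl* were low (14 to 47 per library), as were those of *Gsdma* in TG (0 to 6).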
